A study of Mus musculus with 6 samples.

Results

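The sites described here are places where ATF3 was called on chromatin of macrophages given HDL and then CpG, and where no peak was called in cells without a stimulus or with HDL alone. They were chosen by overlap, as the KOIN-corrected peaks with HDL + CpG that lie off annotated repeats and share no base with any standard or KOIN-corrected peak of the other 2 conditions. This gave 474 sites out of 998 KOIN-corrected peaks off repeats with HDL + CpG, out of 1232 with repeats included, and out of 16759 peaks over the 6 lists of the series. KOIN (knockout implemented normalization) calls peaks in the WT library against the library of ATF3-deficient (KO) cells, so that signal which does not need ATF3 is taken away.

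Macrophages were grown from mouse marrow with M-CSF at 40 ng/ml (BMDMs), and the chromatin that ATF3 occupies was sequenced after immunoprecipitation (ChIP-seq). KO cells came from Atf3 -/- mice and WT cells from C57BL/6 Atf3 +/+ mice, with both genotypes aged 6 to 8 weeks. The construction of the Atf3 allele was not given in the sources used here. Cells of both genotypes were left unstimulated, were given 2 mg/ml of HDL during 6 h, or were given the same HDL and afterwards 100 nM of CpG during 4 h, and all were precipitated with 2.5 µg of the same rabbit polyclonal antibody. The 3 biological replicates of each group were joined before alignment, so each genotype and condition is 1 pooled library, no spread between mice can be computed, and the tests below compare lists of sites, which are not replicates of a condition. No cells given CpG without HDL were analysed here, so CpG itself and CpG after HDL cannot be told apart. As described, the 4 h of CpG followed the 6 h of HDL, and cells given HDL alone had the 6 h only. Time since the start of HDL thus differed along with CpG, and these cannot be told apart either. No expression was measured, so macrophage markers could not be checked.

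ATF3 is a basic leucine zipper (bZIP) transcription factor that binds DNA as a dimer, alone or with JUN and other bZIP partners, at AP-1 and cyclic AMP response elements (CRE). CpG DNA is a ligand of Toll-like receptor 9 (TLR9), which signals through MyD88 to NF-κB and the MAP kinases. In macrophages, ATF3 is induced by such signals and by HDL, and is known as a repressor of cytokine genes such as Il6 and Il12b.

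To show what the protein is known to bind, the AP-1 sequences at 10 of these sites are given first. They are the highest-scoring named sites that hold TGAGTCA, its reverse complement TGACTCA, or the CRE sequence TGACGTCA within 100 bp of the peak centre, and all 10 hold AP-1. Each line gives 61 bases of the plus strand of mm9 around the motif nearest to the centre, named by the nearest gene, with the motif in capitals.
Col18a1 (chr10:76674182-76674242): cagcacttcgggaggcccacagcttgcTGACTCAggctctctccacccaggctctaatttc
Sqstm1 (chr11:50026704-50026764): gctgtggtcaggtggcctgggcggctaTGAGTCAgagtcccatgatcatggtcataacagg
Dfna5 (chr6:50205064-50205124): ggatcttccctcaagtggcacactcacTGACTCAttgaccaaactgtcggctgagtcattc
Zfp36l1 (chr12:81147923-81147983): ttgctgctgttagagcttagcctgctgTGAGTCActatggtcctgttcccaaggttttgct
Akap6 (chr12:53883998-53884058): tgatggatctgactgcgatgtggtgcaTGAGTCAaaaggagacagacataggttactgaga
Nfkbia (chr12:56567415-56567475): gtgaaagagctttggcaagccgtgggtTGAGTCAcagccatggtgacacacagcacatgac
Egr2 (chr10:66946272-66946332): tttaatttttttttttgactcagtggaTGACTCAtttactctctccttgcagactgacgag
Rhou (chr8:126216278-126216338): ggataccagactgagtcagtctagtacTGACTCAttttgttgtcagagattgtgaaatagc
Tlx1 (chr19:45250856-45250916): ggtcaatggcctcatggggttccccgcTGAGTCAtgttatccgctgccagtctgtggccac
Pik3cd (chr4:149012221-149012281): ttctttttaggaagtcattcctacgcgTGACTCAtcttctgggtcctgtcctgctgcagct

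In the Dfna5 site, TGACTCA lay 0 bp from the peak centre, and in the 10 sites it lay at most 97 bp away. Windows with 2 AP-1 motifs were those near Col18a1, Dfna5, Egr2 and Rhou. In the stretches near Dfna5, Egr2 and Rhou the neighbouring motif can be read in lower case.

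A further set shows the κB motif, the sequence bound by NF-κB (RELA, NFKB1 and related proteins). It is given because the motif's share was higher here than at peaks shared with another condition and at peaks found only with HDL. Against peaks that KOIN removed, the difference in share did not pass the test. This set was chosen after those shares had been seen, as the highest-scoring named sites with the motif within 100 bp of the centre. The motif is in capitals, on the plus strand of mm9.
Sqstm1 (chr11:50026648-50026708): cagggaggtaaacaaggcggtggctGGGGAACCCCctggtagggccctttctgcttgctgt
Mir34a (chr4:149434262-149434322): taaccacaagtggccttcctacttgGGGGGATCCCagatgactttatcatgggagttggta
Il12b (chr11:44203727-44203787): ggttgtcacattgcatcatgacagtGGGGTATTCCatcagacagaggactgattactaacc
Tlx1 (chr19:45250846-45250906): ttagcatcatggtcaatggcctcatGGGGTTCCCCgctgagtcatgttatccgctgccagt
Tnfaip3 (chr10:18735307-18735367): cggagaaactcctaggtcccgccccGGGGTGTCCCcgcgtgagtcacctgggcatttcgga
Marcks (chr10:37058202-37058262): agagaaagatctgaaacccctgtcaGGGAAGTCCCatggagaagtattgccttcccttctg

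Of these, the Sqstm1, Tlx1 and Tnfaip3 sites also hold AP-1 within 100 bp. In Tlx1 and Tnfaip3 the AP-1 letters follow shortly after the κB motif in the printed stretch.

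**Figure D1:**
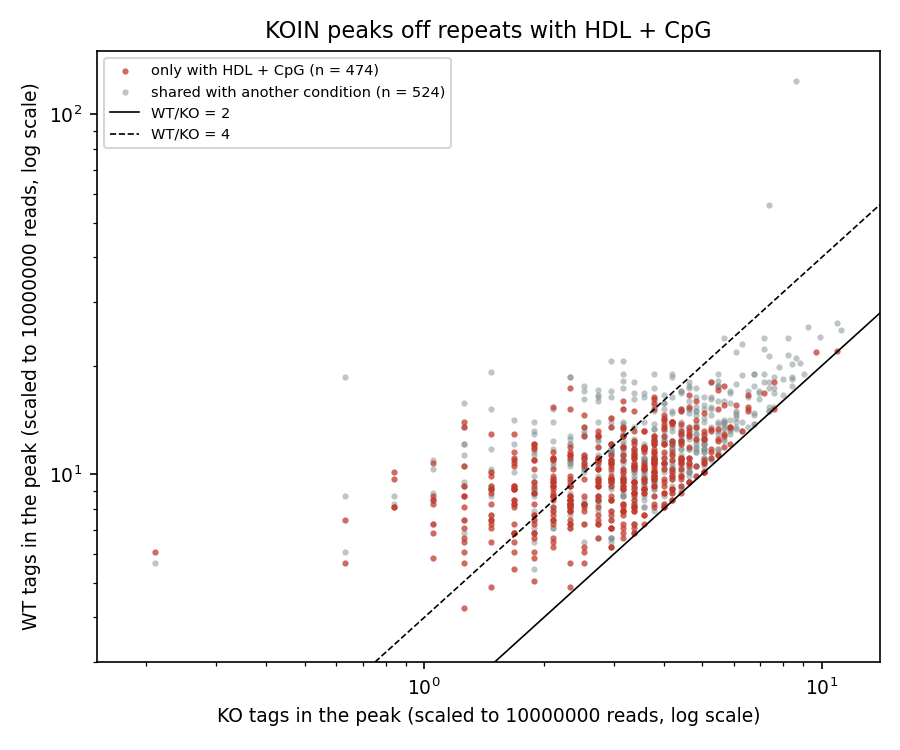
KO tags (horizontal) and WT tags (vertical) in KOIN-corrected peaks off repeats with HDL + CpG, both scaled to 10000000 reads on log axes, 1 point per site. The 474 sites found only with HDL + CpG (red) reach 22.0 WT tags, while the 524 sites shared with another condition (grey) reach 124, and the lines mark WT/KO ratios of 2 and 4.

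Tags are reads in a peak scaled by the authors to a library of 10000000 reads, and the score is the one the peak caller gave, which rises as the P value falls. All these values chose the sites and are given as a description with no test. The 474 sites held a median of 3.16 KO tags (interquartile range 2.32 to 4.00) and 9.91 WT tags (8.29 to 11.7), which are 15 KO reads and 49 WT reads. The WT/KO ratio had a median of 3.21 (2.56 to 4.10) and ran from 2.00, where the authors' filter stops, to 28.8. It was at least 4 in 132 of the 474 sites (27.8%), beside 25.9% of all 1232 KOIN-corrected peaks with HDL + CpG. The 524 peaks off repeats with HDL + CpG that overlap a peak of another condition, called shared sites below, had medians of 3.79 KO tags, 11.7 WT tags and a ratio of 3.08.

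Most of the sites stood close to the limit of detection. Their score had a median of 46.8, and 287 of 474 (60.5%) scored under 50, against 170 of 524 shared sites (32.4%). The lists begin at a score of 40. With 15 KO reads and 49 WT reads at a typical site, the exact 95% interval of the ratio, which covers counting error only, lay wholly above 2 in 151 sites (31.9%), against 193 shared sites (36.8%). A standard peak, called in the WT library alone, overlapped 428 of the 474 sites (90.3%) and 497 of the 524 shared sites (94.8%).

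Depth differed between the conditions. The HDL + CpG libraries held 47504605 KO reads and 49467421 WT reads, the HDL libraries 66061648 KO and 37930363 WT reads, and the unstimulated libraries 75534584 KO and 37137377 WT reads. The lowest WT count of a KOIN-corrected peak off repeats was 20 reads without stimulus, 19 with HDL and 21 with HDL + CpG. The HDL lists held 1870 KOIN-corrected and 2817 standard peaks off repeats, and the HDL + CpG lists 998 and 1892. These lists differ in treatment and KO depth as well as WT depth, so the counts cannot separate depth from treatment. The effect of depth on the calls was not tested. A gain of binding with CpG, the longer time since HDL and a deeper WT library cannot be told apart at the sites found only with HDL + CpG. Tags at these positions in the other conditions were not analysed here, so a site without a called peak there may still have held reads.

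The nearest peak of another condition belonged to an HDL list for 371 sites (78.3%). It lay within 1 kb for 16 sites, within 10 kb for 87 and within 100 kb for 313. Just inside the rule, the Arhgap25 site, 8.02 kb upstream of the gene, lay 9 bp from an HDL standard peak and held 3.58 KO tags and 11.7 WT tags. The site 3.90 kb upstream of Ncf1, a subunit of the phagocyte NADPH oxidase, lay 18 bp from an HDL KOIN peak with 1.47 KO tags and 7.48 WT tags. A site 199 kb upstream of Marcks, an actin-binding kinase substrate, lay 76 bp from an unstimulated standard peak and held 2.74 KO tags and 9.70 WT tags. Just outside it, a site in the Cerk gene (ceramide kinase) shared 33 bp with an HDL standard peak and had 2.53 KO tags and 11.1 WT tags. The peaks near Crtam (5.05 KO and 14.4 WT tags) and Pea15a (3.16 KO and 9.50 WT tags) shared 110 and 122 bp with unstimulated standard peaks. The tags on both sides of the limit overlapped.

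The sites had 447 distinct nearest genes. For 231 of these genes (51.7%) no peak of another condition named the same gene, whereas 166 (37.1%) had a KOIN-corrected peak of another condition elsewhere. For 27 genes there were 2 sites each, among them Batf, Nfil3, Hmox1, Klf4, Malt1, Mpeg1, Marcks and Pira2, and 0 genes had 3 or more. Paired sites of a gene lay 0.211 to 280 kb apart, with a median of 19.7 kb.

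**Figure D2:**
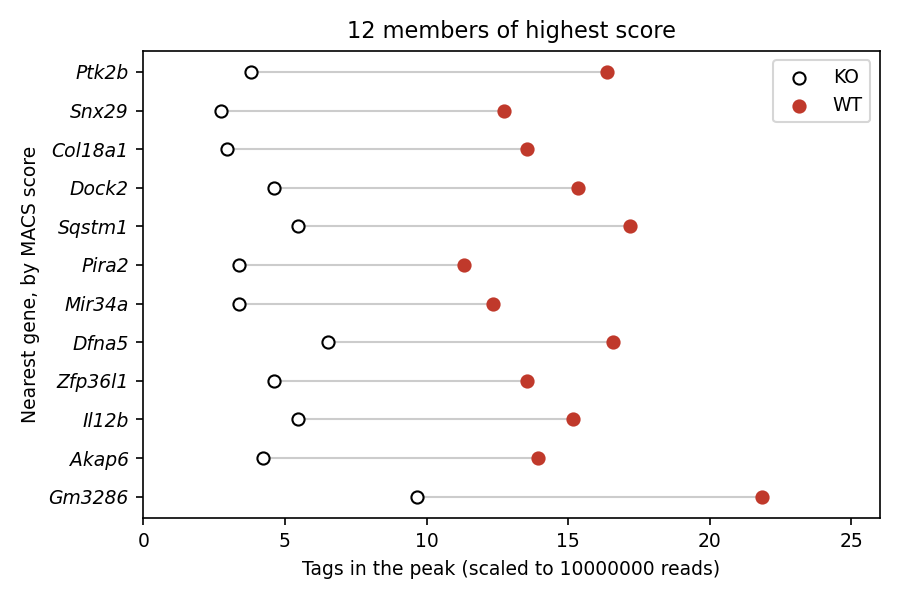
Tags scaled to 10000000 reads in KO (open) and WT (filled) libraries at the 12 sites of highest score, listed from the top by score and named by nearest gene. KO tags run from 2.74 at Snx29 to 9.68 at Gm3286, and the WT point lies to the right of the KO point in every line, as the rule requires.

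The highest score belonged to a site in a tyrosine kinase gene. In intron 4 of Ptk2b, which encodes the adhesion-linked tyrosine kinase PYK2, the peak at chr14:66803411-66804211 held 3.79 KO tags and 16.4 WT tags (18 and 81 reads), a ratio of 4.32 (95% interval 2.57 to 7.66) and a score of 128. Intron 11 of Snx29, a sorting nexin, had 2.74 KO tags and 12.7 WT tags, with a ratio of 4.65 (2.54 to 9.22). The site 45.0 kb upstream of Col18a1, a basement membrane collagen, held 2.95 KO tags and 13.5 WT tags. These 3 sites all lay within 33.3 kb of a peak of another condition, the Snx29 site at 2.44 kb.

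Intron 1 of Dock2, a Rac activator of leukocyte migration, followed with 4.63 KO tags and 15.4 WT tags. At 2.35 kb upstream of Sqstm1, whose product p62 is an autophagy receptor and a target of NRF2, the peak at chr11:50026064-50027211 held 5.47 KO tags and 17.2 WT tags (26 and 85 reads). The Sqstm1 window contained AP-1 and a κB motif. At the promoter of Pira2, an activating receptor of the paired immunoglobulin-like family, 3.37 KO tags stood against 11.3 WT tags. The annotation places the peak 36 bp from the start site, and a second site of the gene lay 14.2 kb away. Near-identical copies of Pira genes lie side by side, so the assignment of reads there is uncertain. The authors kept reads that map to several places, so this limit holds for other sites in duplicated sequence too. Mapping at single sites was not checked here.

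The other 6 sites of this group lay near Mir34a, Dfna5, Zfp36l1, Il12b, Akap6 and Gm3286. The site 8.20 kb from the Mir34a gene, a p53-induced microRNA gene, had 3.37 KO tags and 12.3 WT tags. Intron 1 of Dfna5, which encodes gasdermin E, a pore-forming protein of lytic cell death, had 6.53 KO tags and 16.6 WT tags. The site near Zfp36l1, an mRNA decay factor, lay 416 kb from the next peak of another condition and had 4.63 KO tags and 13.5 WT tags. Akap6, an anchor of protein kinase A, had 4.21 KO tags and 13.9 WT tags in intron 1. The predicted gene Gm3286 had 9.68 KO tags and 21.8 WT tags, with a ratio of 2.25, in the widest peak of the group and without a standard peak.

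Cytokine and secreted effector genes were the nearest gene of 5 sites (1.05%, against 11 of all 998 peaks off repeats, 1.10%). The peak at chr11:44203183-44204211, 9.87 kb upstream of Il12b, the p40 subunit of IL-12 and IL-23, held 5.47 KO tags and 15.2 WT tags (26 and 75 reads), a ratio of 2.77 (1.75 to 4.51). Its window held κB, RUNX and C/EBP-ATF motifs but not AP-1, and the next peak of another condition lay 23.6 kb away. The site 12.7 kb from Csf2, the gene of GM-CSF, had 3.16 KO tags and 13.3 WT tags. A site in the Il33 gene had 2.32 KO tags and 11.5 WT tags, and one near Pdgfb 2.11 KO tags and 7.28 WT tags. The Ptgs2 site, 97.9 kb from the cyclooxygenase gene, had 3.37 KO tags and 11.7 WT tags.

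Genes of TLR and NF-κB signalling were nearest to 5 sites (1.05%, against 11 peaks, 1.10%). At the promoter of Tnfaip3, the gene of the deubiquitinase A20 that limits NF-κB, 3.37 KO tags stood against 12.1 WT tags (16 and 60 reads), with a ratio of 3.60 (2.05 to 6.70). The peak lay 28.0 kb from the next peak of another condition, and its window held AP-1, κB, IRF and GC box motifs. The site 26.2 kb from Nfkbia, the gene of IκBα, had 3.79 KO tags and 12.5 WT tags, with AP-1 17 bp from the centre. Near Zfp36, whose product tristetraprolin destabilises cytokine mRNAs, the site held 5.26 KO tags and 13.1 WT tags and lay 800 bp from a peak of another condition. Intron 1 of Tank, an adaptor of TRAF and TBK1, had 6.10 KO tags and 15.6 WT tags. The site 6.465 kb from Cd14, the LPS co-receptor gene, had 2.32 KO tags and 8.49 WT tags.

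The MAP kinase list held 6 sites (1.27%, against 11 peaks, 1.10%). Mapk14, the gene of p38α, had 3.79 KO tags and 15.8 WT tags in intron 2, and Mapkapk2, the gene of its substrate kinase MK2, 3.37 KO tags and 8.89 WT tags. Of the phosphatases that switch off MAP kinases, intron 1 of Dusp4 had 0.84 KO tags and 8.09 WT tags (4 and 40 reads), a ratio of 9.60 whose interval of 3.47 to 37.0 reflects the 4 KO reads. The site 22.4 kb upstream of Dusp1 had 1.68 KO tags and 11.1 WT tags, without a standard peak. That 9.54 kb from Dusp7 had 3.37 KO tags and 9.10 WT tags.

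The bZIP list held 8 sites (1.69%) of 6 genes, against 20 of the 998 peaks (2.00%). Batf, a partner of JUN proteins, had sites at 18.9 and 24.0 kb, with 4.42 KO and 12.3 WT tags at the first and 1.47 KO and 9.91 WT tags at the other. Nfil3, a bZIP repressor, had 3.79 KO tags and 10.7 WT tags in its intron, where the window held AP-1 and C/EBP-ATF motifs. Atf6, a transducer of endoplasmic reticulum stress, had 2.95 KO tags and 11.3 WT tags in intron 2. The site 62.8 kb upstream of Bach1, a repressor of haem-responsive genes, had 3.79 KO tags and 9.70 WT tags. The Atf6 gene also counts in the stress list, which held 7 sites (1.48%, against 14 peaks, 1.40%).

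Within the stress list, Hmox1, the gene of haem oxygenase, had 1.89 KO tags and 6.06 WT tags at 9.72 kb upstream, with a MARE-type motif that contains AP-1, and a second site at 3.97 kb with 3.79 KO tags and 12.1 WT tags. The intergenic site 44.0 kb from Slc40a1, the gene of the iron exporter ferroportin, had 2.32 KO tags and 11.1 WT tags. In intron 3 of Edem2, a factor of endoplasmic reticulum-associated degradation, 0.84 KO tags stood against 8.09 WT tags.

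Signalling downstream of myeloid receptors gave 8 sites (1.69%, against 16 peaks, 1.60%). Besides Ptk2b, the site 10.1 kb upstream of Jak2 had 1.89 KO tags and 12.1 WT tags (9 and 60 reads), a ratio of 6.40 (3.16 to 14.7). Pik3cd, a leukocyte PI3 kinase subunit, had 5.05 KO tags and 13.1 WT tags, and Inpp5d, the phosphatase SHIP1, 4.84 KO tags and 16.0 WT tags. The Pim1 site in the 3' untranslated region had 1.68 KO tags and 9.30 WT tags.

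The list of integrins, the actin skeleton and its regulators held 9 sites (1.90%, against 18 peaks, 1.80%). The intergenic site 38.6 kb from Rhou had 3.16 KO tags and 16.0 WT tags with a ratio of 5.06 (2.89 to 9.46). The intergenic site 33.1 kb from Fgd2, an exchange factor for Cdc42, had 4.63 KO tags and 16.6 WT tags. Elmo1, the DOCK partner in engulfment, had 5.68 KO tags and 15.6 WT tags in intron 1.

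Macrophage identity and receptor genes also gave 9 sites (1.90%, against 23 peaks, 2.30%). The costimulatory ligand gene Cd86 had 2.11 KO tags and 11.1 WT tags in intron 1, with a ratio of 5.28 (2.67 to 11.6). The site 6.44 kb upstream of Csf1r, the M-CSF receptor gene, had 4.42 KO tags and 8.89 WT tags, a ratio of 2.01 that sits at the authors' limit. The site 2.03 kb upstream of the lectin gene Clec4n had 4.42 KO and 10.3 WT tags. Those 5.27 kb upstream of Lilrb3 and 21.85 kb upstream of Runx1 had 1.89 KO and 6.87 WT tags and 3.79 KO and 9.91 WT tags.

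The cell cycle, growth and death list held 5 sites (1.05%, against 16 peaks, 1.60%). Cdk6 had 2.32 KO tags and 15.2 WT tags in intron 2, a ratio of 6.55 (3.46 to 13.7). The site 54.3 kb upstream of Egr2 had 2.32 KO tags and 11.3 WT tags. Lipid handling genes gave 2 sites (0.422%, against 10 peaks, 1.00%), Nr1h3, which encodes the sterol receptor LXRα, with 4.63 KO tags and 9.50 WT tags, and Pparg with 2.74 KO tags and 8.69 WT tags. Interferon genes gave 1 site, at the Ifngr2 promoter (4.00 KO and 9.50 WT tags), against 1 of the 998 peaks (0.100%), and the list of neuronal genes gave 0 sites, against 1 of the 998 peaks. Among the 1048 sites found only with HDL, the shares were below those of the 474 sites for the bZIP list (4 sites, 0.382%), the stress list (7, 0.668%), macrophage identity (15, 1.43%), myeloid receptor signalling (12, 1.15%), MAP kinases (10, 0.954%) and TLR and NF-κB signalling (10, 0.954%). They were at or above them for integrins and actin (20, 1.91%), the cell cycle (17, 1.62%), cytokines (13, 1.24%), lipid handling (8, 0.763%), neuronal genes (5, 0.477%) and interferon genes (4, 0.382%). None of these list counts was tested.

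By the deposited annotation, 194 sites (40.9%) were intergenic, 191 (40.3%) intronic, 68 (14.3%) at promoters, 8 at transcription ends, 8 in 3' untranslated regions and 5 in exons. Of the intronic sites, 78 (40.8%) lay in intron 1, against 100 of 233 shared intronic sites (42.9%). The promoter share differed from that of shared sites, with 68 of 474 against 39 of 524 shared sites (7.44%), an odds ratio of 2.08 (95% interval 1.35 to 3.24; two-sided Fisher's exact test, Benjamini-Hochberg adjusted exact p = 0.00423 over 9 class tests). Against 120 of 1048 sites found only with HDL (11.5%), the odds ratio was 1.30 (0.926 to 1.80, adjusted exact p = 0.292). This comparison passed with repeats kept (1.48, adjusted exact p = 0.0256). Against 285 peaks of the standard list with HDL + CpG that KOIN removed and no other condition shared, 23 were at promoters (8.07%). The odds ratio was 1.91 (1.14 to 3.29, adjusted exact p = 0.0327), a call lost under 5 alternatives with adjusted p from 0.0507 to 0.877. The excess over shared sites did not pass the test among sites with a score of at least 60, where the odds ratio was 1.65 (adjusted exact p = 0.877), or with at least 10 WT tags, where it was 1.66 (adjusted exact p = 0.244).

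Promoter sites were not the strongest by WT tags or score, while their median WT/KO ratio was 3.28, against 3.29 at intronic and 3.08 at intergenic sites. Promoter sites had medians of 2.95 KO tags, 9.40 WT tags and a score of 44.8, against 3.16 KO tags, 10.3 WT tags and 48.0 at intronic sites and 3.37 KO tags, 9.70 WT tags and 47.0 at intergenic sites. These differences were not tested. After Pira2, the promoter with the highest score was that of Zc3hav1, an antiviral zinc finger protein, with 4.00 KO tags and 11.5 WT tags. The Map4 promoter, of a microtubule-associated protein, had 0.84 KO tags and 9.70 WT tags (4 and 48 reads), a ratio of 11.5 with an interval from 4.22 to 44.0. At the promoter of Letm2, a mitochondrial membrane protein, 2.74 KO tags stood against 11.9 WT tags, and the window held CRE and a GC box. H1foo (4.42 KO and 13.8 WT tags), Sass6 (2.53 and 11.1), Zfp335 (2.74 and 10.9) and 4930515B02Rik (5.47 and 11.3) were, like Tnfaip3, also among the 10 promoters of highest score. Of the 68 promoter sites, 15 held AP-1 (22.1%), 4 held CRE and 19 held a GC box, GGGCGGG (27.9%), against 11 (28.2%), 3 and 8 (20.5%) of 39 shared promoters.

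The median distance to the nearest start site was 15.02 kb, against 19.03 kb at shared sites (two-sided permutation test on medians of the log10 distance, 100000 resamples, adjusted permutation p = 0.188), 18.95 kb at sites found only with HDL (adjusted permutation p = 0.0428) and 24.3 kb at removed peaks (adjusted permutation p = 0.0261). Within 1 kb of a start site lay 75 sites (15.8%), against 47 shared sites (8.97%). The GC content within 100 bp of the centre averaged 49.6%, against 49.4% at shared sites (permutation test, adjusted permutation p = 0.642), 48.6% at sites found only with HDL (adjusted permutation p = 0.0318) and 47.2% at removed peaks (adjusted permutation p = 0.00036). At promoters it averaged 58.6% ± 8.00 (SD, 68 sites), against 56.3% ± 9.45 at 39 shared promoters. None of these 4 calls held under every alternative. Against sites found only with HDL, the distance call was lost under 5 (adjusted permutation p from 0.0581 to 0.535) and the GC call under 4 (0.0766 to 0.634), with the GC difference at 0.228 percentage points where repeats were kept, against 1.06. Against removed peaks, the distance call was lost under 3 (adjusted permutation p from 0.0766 to 0.369) and the GC call under 2 (0.0928 to 0.369).

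**Figure D3:**
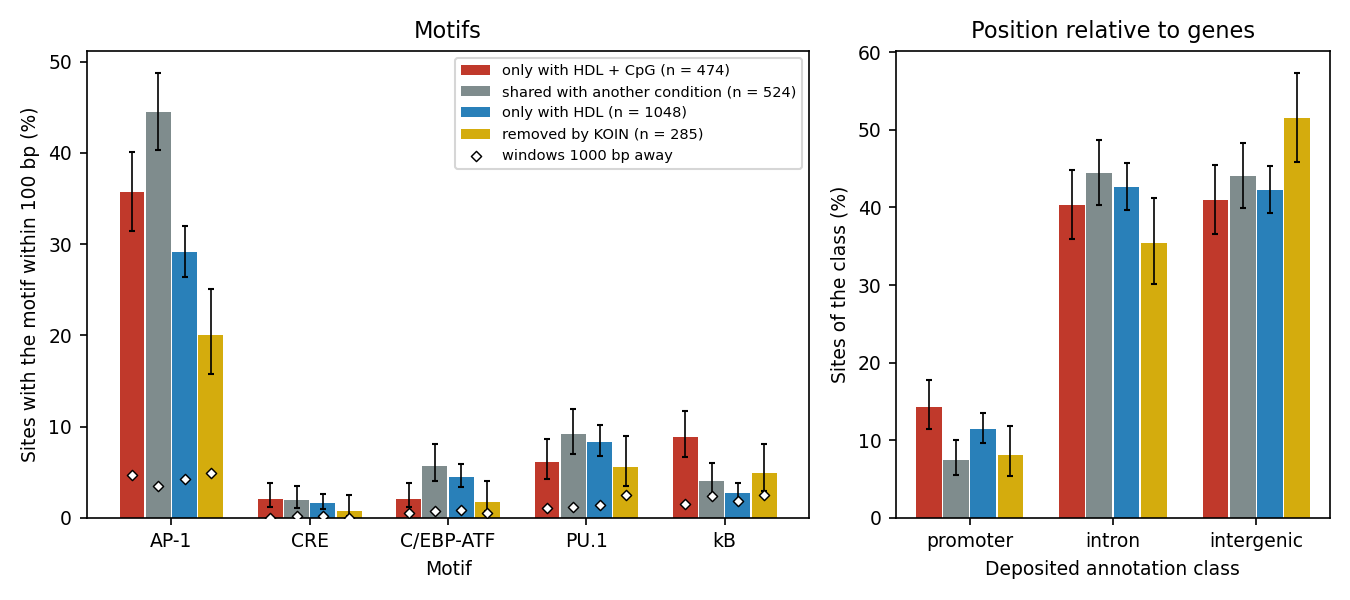
Left, percentage of sites with each motif within 100 bp of the peak centre, and right, percentage in each annotation class, for sites only with HDL + CpG, shared sites, sites only with HDL and peaks removed by KOIN, with Wilson 95% intervals; diamonds give the windows 1000 bp to either side. AP-1 was in 35.7% of the sites only with HDL + CpG and in 44.5% of shared sites, and κB (kB on the axis) in 8.86% against 4.01%.

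The letters under the peaks were not used by the rule. AP-1, written TGAGTCA or TGACTCA, was found within 100 bp of the centre at 169 of the 474 sites (35.7%, Wilson 95% interval 31.5 to 40.1), against 4.64% of 948 windows shifted by 1000 bp to either side. It was at 233 of 524 shared sites (44.5%), an odds ratio of 0.692 (0.532 to 0.900; two-sided Fisher's exact test, adjusted exact p = 0.0326 over 30 motif tests). Sites found only with HDL had AP-1 in 29.1%, an odds ratio of 1.35 (1.06 to 1.71, adjusted exact p = 0.0601), a comparison that passed under 5 of the alternatives. Of 285 removed peaks, 57 (20%) had AP-1, an odds ratio of 2.22 (1.55 to 3.19, adjusted exact p = 6.19e-05). This call was lost with a score of at least 60, where the odds ratio was 4.05 (adjusted exact p = 0.169). The deficit against shared sites lost its call under 6 alternatives, with adjusted p between 0.0652 and 1. Among sites with a score of at least 60 it came to an odds ratio of 0.881.

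Within the 474 sites AP-1 was in 38 of 83 sites with a score of 60 or more (45.8%, 35.5 to 56.5) and in 131 of 391 sites under 60 (33.5%, 29.0 to 38.3). Sites with AP-1 had medians of 3.16 KO tags, 10.3 WT tags, a ratio of 3.29 and a score of 46.7, and those without it 3.16 KO tags, 9.70 WT tags, 3.14 and 46.9, so the median scores did not differ in the way the shares on either side of 60 did. Neither difference was tested. At least 2 AP-1 motifs were in 33 sites. In 118 of the 169 sites (69.8%) the motif lay within 50 bp of the centre. The MARE-type motif, an AP-1 sequence with the extra bases that MAF, NRF2 and BACH proteins read, was in 13 of the 169.

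CRE (TGACGTCA) was in 10 sites (2.11%, 1.15 to 3.84), against 10 shared sites (1.91%). Of these 10 sites, 4 were at promoters. The composite C/EBP-ATF motif (TGATGCAA), at which C/EBP and ATF proteins bind as a pair, was also in 10 sites (2.11%), against 30 shared sites (5.73%), an odds ratio of 0.355 (0.153 to 0.757, adjusted exact p = 0.0263). Against sites found only with HDL (4.48%) the odds ratio was 0.459 (adjusted exact p = 0.119), which passed in windows of 50 bp (0.209, adjusted exact p = 0.0297) and 250 bp (0.413, adjusted exact p = 0.0128), and against removed peaks (1.75%) 1.21 (adjusted exact p = 0.953). The call against shared sites was lost under 3 alternatives, with adjusted p from 0.0528 to 0.667 and odds ratios from 0.335 to 0.379. At promoters, C/EBP-ATF was in 1 of 68 sites, against 8 of 39 shared promoters. In all, 184 sites (38.8%) held AP-1, CRE or C/EBP-ATF and 290 (61.2%) held none of these.

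The κB motif was found more often at these sites than at shared sites and at sites found only with HDL. It was at 42 of 474 sites (8.86%, 6.62 to 11.8), against 21 of 524 shared sites (4.01%, 2.64 to 6.05), an odds ratio of 2.33 (1.32 to 4.20, adjusted exact p = 0.0171). Against 28 of 1048 sites found only with HDL (2.67%) the odds ratio was 3.54 (2.11 to 6.01, adjusted exact p = 1.3e-05). Against 14 of 285 removed peaks (4.91%), which come from the same WT library, it was 1.88 (0.984 to 3.80, adjusted exact p = 0.170), a comparison that passed with KOIN lists alone for the other conditions (2.76, adjusted exact p = 0.00133) and with repeats kept (2.40, adjusted exact p = 0.00526). In windows shifted by 1000 bp the motif was in 1.48% beside these sites, against 2.39% beside shared sites and 1.81% beside sites found only with HDL.

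The κB call against shared sites was lost under 4 alternatives. These were KOIN lists alone for the other conditions (odds ratio 1.89, adjusted exact p = 0.0990), a score of at least 60 (2.38, adjusted exact p = 0.667), at least 10 WT tags (2.52, adjusted exact p = 0.0768) and a window of 50 bp (2.15, adjusted exact p = 0.294). Against sites found only with HDL it was lost with a score of at least 60, where the odds ratio was 2.08 (adjusted exact p = 0.667). By class, κB was in 25 of 194 intergenic sites (12.9%), 11 of 191 intronic sites (5.76%) and 4 of 68 promoters (5.88%), against 12 of 231 (5.19%), 8 of 233 (3.43%) and 1 of 39 (2.56%) shared sites. Of the 42 sites, 14 also held AP-1 (33.3%), and in 19 the κB motif lay within 50 bp of the centre (45.2%). They had medians of 3.37 KO tags, 10.0 WT tags and a score of 45.1, against 3.16 KO tags, 9.91 WT tags and 46.9 at the 432 sites without κB. A match of letters is a description, and NF-κB itself was not measured.

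**Figure D4:**
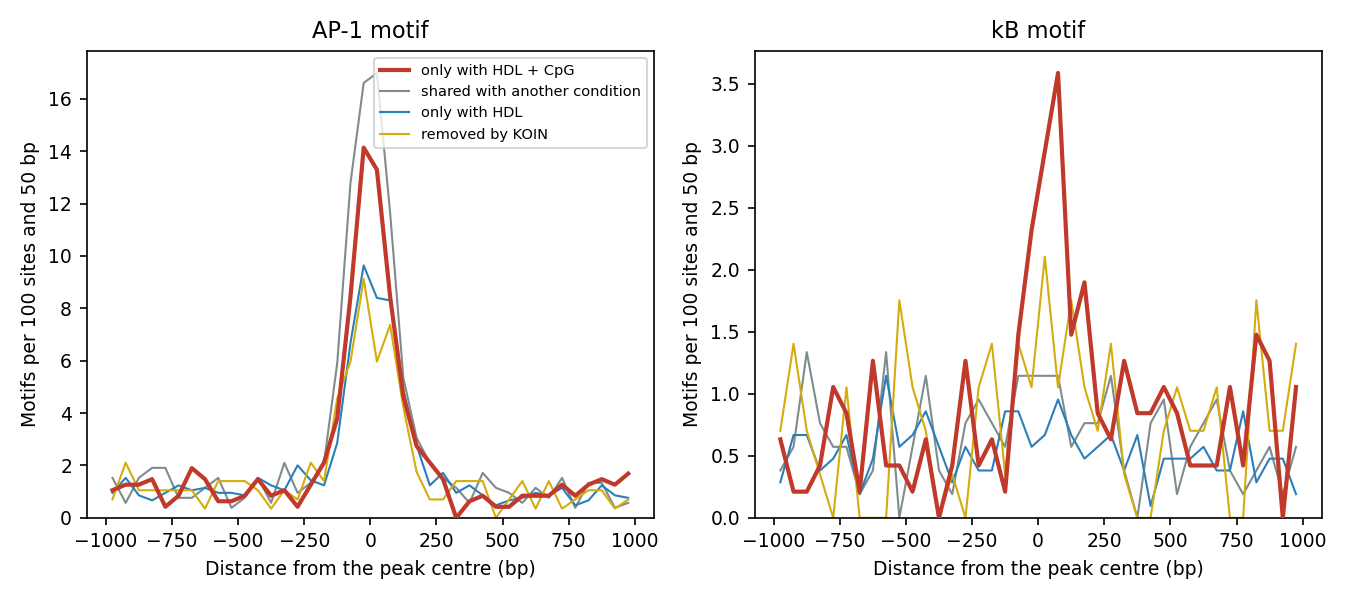
AP-1 (left) and κB motifs (right) per 100 sites in bins of 50 bp, by distance from the peak centre, for sites only with HDL + CpG (thick red), shared sites, sites only with HDL and removed peaks. AP-1 reached 14.1 motifs per 100 sites beside the centre, against 17.0 at shared sites, and κB 3.59 motifs in the bin from 50 to 100 bp. Overlapping matches were counted separately.

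PU.1 (GAGGAAGT), the motif of the macrophage lineage factor, was in 29 sites (6.12%), against 48 shared sites (9.16%), an odds ratio of 0.646 (0.386 to 1.07). RUNX (AACCACA) was in 5.91% against 8.02% of shared sites, IRF (GAAANNGAA) in 7.17% against 6.68%, the GC box in 6.96% against 4.77%, and the C/EBP palindrome (TTGCGCAA) in 1 site against 3. For RUNX and IRF the windows shifted by 1000 bp held the motif in 4.75% and 6.22%, close to the shares at the sites themselves. With CRE and MARE-type, these motifs gave 21 comparisons with the other lists, of which 0 passed the adjusted threshold and 0 had an unadjusted p under 0.05, the adjusted p running from 0.172 to 1. The intronic and intergenic shares gave 0 of 5 such calls, while the intergenic share was lower than that of removed peaks (51.6%), with an odds ratio of 0.650 (adjusted exact p = 0.0237). This call was lost under 3 alternatives, on autosomes alone with an odds ratio of 0.718 (adjusted exact p = 0.0946).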

How the data were processed

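ATF3 ChIP-seq was analysed from 6 deposited peak lists, 2 per condition (standard and KOIN-corrected), which the authors made from 6 libraries. Per the labels each library joins 3 biological replicates, so a group has 1 library. The authors aligned reads to mm9, called and annotated peaks and kept KOIN peaks with a WT/KO ratio of at least 2. Tools in the processing notes of the submitters are MACS 1.4.2, HOMER 4.3, CASAVA 1.8 and Bowtie 0.12.8. The score is the value of MACS in the deposited lists. The deposited signal is tags per peak, scaled by the authors to 10000000 reads, and reads were recovered from it with the deposited library totals. Every tag value lay within 0.005 tags of the value that a whole number of reads gives. The authors' own WT/KO fold column was not used, and the ratio was recomputed from the reads.

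Sequences came from NCBIM37, the assembly of mm9, whose chromosomes contain every peak. Of 438 sites whose gene is in GENCODE, 410 (93.6%) had a start site at the deposited distance within 100 bp. Motifs were searched within 100 bp of the centre on either strand, and the MARE-type motif contains AP-1. The κB consensus and the MARE-type motif have ambiguous bases and are given by name. Sequences of sites on chromosome 18 are not shown.

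Sites were compared with 524 shared sites, 1048 KOIN sites found only with HDL and 285 removed peaks, by two-sided Fisher's exact tests and permutation tests with 100000 resamples, each family adjusted by Benjamini-Hochberg. The tests were checked on simulated data. Intervals are 95%. Those of WT/KO ratios cover counting error of reads only and take reads as independent, which PCR duplicates are not. Those of shares and odds ratios take each site as a unit.

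Named sites were the 12 of highest score, the 8 with the most WT tags, the 10 promoters of highest score, up to 5 per gene list by score within 100 kb of the start site, genes with 3 or more sites and the 3 nearest to the overlap limit on each side. Of these, 1 promoter is not reported here. Values of the most-tagged sites that no other part of this rule names are in the closing section. The sites, motifs and 13 gene lists were chosen with earlier results of these data known. The 14 alternatives cover overlap, lists, score, repeats, chromosomes, tags, motif window, promoter distance and a pseudocount of 1 tag. Computations used scipy 1.17.1, pandas 2.3.3, numpy 2.4.6 and matplotlib 3.10.9 under Python 3.11.15.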

Additional observations from a re-analysis of the deposited data

How the results depend on the processing

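The number of sites was 474 and stayed within 1.5 times of it under the overlap, list, repeat and chromosome alternatives, but was 83 with a score of at least 60, 5 with a score of at least 100 and 228 with at least 10 WT tags. With a score of at least 100 too few sites were left, and odds ratios were computed only where both lists held at least 20 sites. Against shared sites, the AP-1 odds ratio (0.692) lost its call at 0.758 when a peak within 1000 bp counted as overlapping, 0.779 with KOIN lists alone, 0.881 with a score of at least 60, 0.710 where a standard peak was needed, 0.856 with at least 10 WT tags and 0.837 in a window of 50 bp. C/EBP-ATF (0.355) lost it at 0.379 under the 1000 bp overlap, 0.335 under the score of 60 and 0.356 under the tag minimum. The κB odds ratio (2.33) lost it at 1.89 with KOIN lists alone, 2.38 with the score of 60, 2.52 with the tag minimum and 2.15 in the small window, and against sites found only with HDL (3.54) at 2.08 with the score of 60. The promoter odds ratio (2.08) lost it at 1.65 with the score of 60 and 1.66 with the tag minimum. The score and tag alternatives test fewer sites, and for the others the cause was not tested.

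The direction turned in comparisons that were not called in either setting, or were called in the main one as marked. The log10 distance minus that of shared sites (-0.10) became 0.0956 with the score of 60 and 0.0453 with the tag minimum, and minus that of sites found only with HDL (-0.10, called) 0.0570 and 0.0457. The GC difference from shared sites (0.225 percentage points) became -1.08, -0.0186 and, with repeats kept, -0.713, and that from sites found only with HDL (1.06, called) -0.608 with the score of 60. C/EBP-ATF against removed peaks (1.21) became 0.691, 0.695, 0.901 in the window of 50 bp and 0.933 in that of 250 bp, and promoters against sites found only with HDL (1.30) 0.830 with the score of 60. With KOIN lists alone 4 and with repeats kept 2 of the 21 other motif comparisons passed, against 0. Of the 5 other class comparisons, 1 passed with KOIN lists alone and 1 with repeats kept, against 0. Over all results and alternatives, 181 values kept direction and call, 36 lost a call, 10 gained one, 13 moved without a test and 13 reversed. No paired analysis was possible because each group is 1 pooled library. Depth limits single sites, with a median of 15 KO reads and 49 WT reads.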

Other observations

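Of the 8 sites with the most WT tags, the first lay 5.34 kb from Vmn1r238, a vomeronasal receptor gene, with 10.9 KO tags and 22.0 WT tags, a ratio of 2.01 (95% interval 1.43 to 2.86). This site lay 586 bp from an HDL standard peak, so it drops out when a peak within 1000 bp counts as overlapping. Vomeronasal and olfactory receptor genes were the nearest gene of 5 of the 474 sites (1.05%), against 6 of the 998 peaks off repeats (0.601%) and 2 of 1048 sites found only with HDL (0.191%). The others of this group not described above were Tlx1, a homeobox gene (7.58 KO and 17.99 WT tags), Krtdap, a keratinocyte gene (5.26 and 17.99), Klhl25, a ubiquitin ligase adaptor (5.68 and 17.6), Dyrk1a, a dual-specificity kinase (2.32 and 17.4), and Tspan3, a tetraspanin (7.16 and 16.8). Dyrk1a had a ratio of 7.51 (3.99 to 15.6), while the ratios of Tlx1 and Tspan3 were 2.37 and 2.34. The Dyrk1a site lay in intron 2, and those near Tlx1 and Krtdap were intergenic, 25.7 and 7.22 kb away. The Klhl25 and Tspan3 sites lay 181 and 105 kb upstream of the start sites that name them. Both were annotated in introns, which are not introns of those transcripts.

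Klf4 and Klf6, Krüppel-like factors of macrophages, had 2.11 KO and 10.9 WT tags at 91.1 kb upstream of Klf4 and 3.37 KO and 8.89 WT tags at the Klf6 promoter. The 46 sites without a standard peak had medians of 2.95 KO tags, 9.30 WT tags and a score of 43.2, and 13 of them held AP-1 (28.3%), against 156 of the 428 with one (36.4%). The difference was not tested. The sites described above near Gm3286, Marcks, Zfp36, Dusp1, Clec4n and Klf6 were among these 46.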
